A study of Mus musculus with 6 samples.

Results

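The high mobility group (HMG) genes described here are *Hmgb1*, *Hmgb2*, *Hmgb3*, *Hmgn1*, *Hmgn2*, *Hmgn3*, *Hmga1* and *Hmga2*. They were found by name, including rows that join the names of several genes, and all 8 had a row among the 23698 rows of the files. The study compared mouse skin cells by long-read RNA sequencing, ribosome profiling and short-read RNA-seq, to ask how alternative mRNA isoforms and translation differ between normal keratinocytes and squamous cell carcinoma. Analysed here were a single library of ribosome profiling (n = 1) and RNA-seq in replicates 1 and 2 (n = 2), all of cultured squamous cell carcinoma cells (SCCc). These are primary keratinocytes from the back skin of mice at postnatal day 0, with oncogenic Hras G12V and a Tgfbr2 fl/fl KO, taken at passage 10 to 15. The protocol of the series names cycloheximide (CHX), which arrests elongating ribosomes, for the in vivo samples. SCCc is a cultured line of a single genotype, and its wild-type counterpart was not analysed here, so each value places a gene among the other genes of the same cells. Nothing in the labels says that the RNA-seq replicates came from separate cultures, and their spread may be technical.

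HMG proteins are abundant non-histone proteins that bind DNA or nucleosomes and change how chromatin bends and packs. HMGB proteins carry HMG boxes that bend DNA, HMGN proteins bind the nucleosome itself and counter compaction by linker histone H1, and HMGA proteins hold AT-rich DNA with short AT-hook motifs. *Hmga1* and *Hmga2* are high in embryonic and tumor cells and low in most adult tissues, and let-7 microRNAs repress *Hmga2* through its 3′UTR.

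Summed exon counts were 3549555 for ribosome profiling and, for RNA-seq, 10707930 in replicate 1 and 14003713 in replicate 2. Footprints, the mRNA fragments protected by ribosomes, summed to 3198469 on coding sequences (CDS). The keratinocyte label was checked against 8 marker genes, all of which passed the filters used below. *Krt5*, a basal keratin, had an RNA-seq level of 7965 and 9483 RPKM (exon counts scaled to the counted length and to the library's summed exon counts) in replicates 1 and 2, and *Krt14*, its partner, had 4824 and 5362. *Trp63*, a regulator of the epidermal lineage, had 142 and 125 RPKM. Marker lists of other skin cells were low. The 6 fibroblast markers summed to 9.93 and 15.5 RPKM, led by *Col3a1*, and the 3 endothelial markers to 0.505 and 0.591. The 5 melanocyte markers summed to 5.46 and 5.65 RPKM, led by *Pmel*, and the 5 immune markers to 37.9 and 46.1, led by *Cd68* with 35.1 and 37.3. *Lyz2* had 2.71 and 8.56 RPKM, and *Ptprc* had 0.0824 and 0.176.

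Many HMG genes have processed copies elsewhere in the genome, and short reads from such stretches can be assigned to several places. The first 30 bases of the CDS of 4 members are shown because they differ in how many other annotated genes hold the same bases (GENCODE M21, GRCm38, 5′ to 3′, start codon in capitals).
Hmgb1: ATGggcaaaggagatcctaaaaagccgaga
Hmgb3: ATGgctaaaggtgaccccaagaaaccaaag
Hmgn2: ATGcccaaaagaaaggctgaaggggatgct
Hmga1: ATGagcgagtcgggctcaaagtccagccag
These bases were in transcripts of 0 other genes for *Hmgb1*, 4 for *Hmgb3*, 8 for *Hmgn2* and 1 for *Hmga1*, which was *Hmga1b*. A second set is shown because *Hmga2* carries most of its RNA-seq counts on its 3′UTR. It holds mature let-7a from RefSeq (GRCm38.p6), with its seed in capitals, and the 4 places in the annotated 3′UTR of *Hmga2* that match the seed by CTACCTC, in capitals, searched on the mRNA strand only.
let-7a-5p: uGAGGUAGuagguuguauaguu
Hmga2 site 1: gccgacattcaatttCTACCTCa
Hmga2 site 2: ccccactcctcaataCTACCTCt
Hmga2 site 3: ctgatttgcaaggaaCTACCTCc
Hmga2 site 4: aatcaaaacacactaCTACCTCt
The matches start at positions 21, 1258, 1696 and 2554 of the 2977 nt 3′UTR. At least 1 match was present in 7.77% of the 19956 genes with an annotated 3′UTR and in 24.9% of the 2069 genes whose 3′UTR was at least as long. At least 4 matches were present in 10 of the 19956 genes, *Hmga2* among them. A match describes these letters and not a site in use.

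Translational efficiency was taken as footprint RPKM on the CDS over mean RNA-seq RPKM on exons, on the log2 scale and relative to the median of all passing genes. A gene passed with an RNA-seq RPKM above 1 in both replicates, a mean normalised count above 25, and at least part of its CDS both counted and covered by footprints. In total 9863 genes passed, and 7 of the 8 members. All 7 lay more than 2-fold above the median, against 20.8% of all passing genes, and 0 lay more than 2-fold below, against 21.1%. Their values ran from 1.48 in *Hmgn1* to 6.99 in *Hmgb2*, with a median of 3.03. With RNA-seq counted on the CDS, over the same positions as the footprints, all 7 were again more than 2-fold above, against 18.3% of 9862 genes, although *Hmgb3* rested on few RNA-seq counts there, and 0 below, against 19.5%. On this basis they ran from 2.59 in *Hmga2* to 6.28 in *Hmgn2*, with a median of 3.16.

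**Figure D1:**
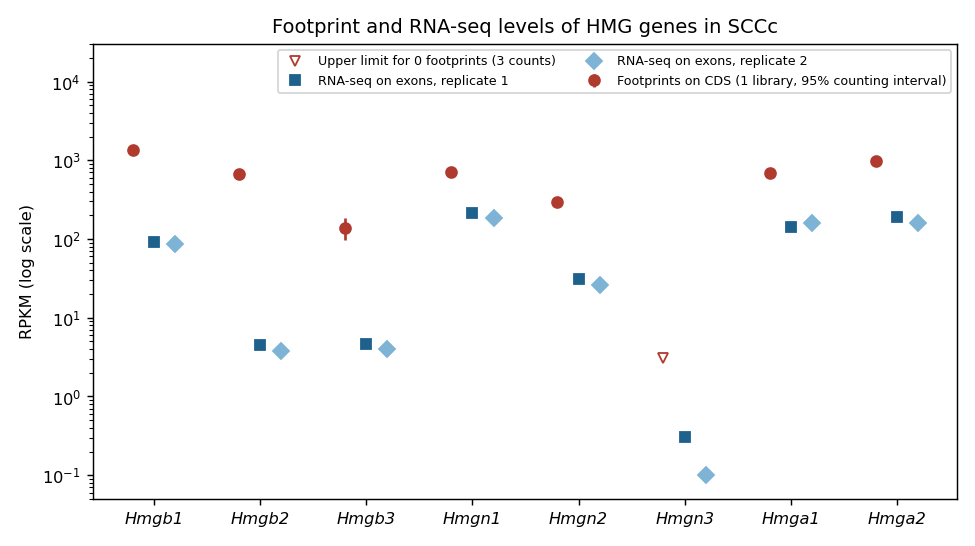
Levels of each HMG gene in SCCc on a log RPKM axis. Circles are footprints on the CDS in 1 library with a 95% exact Poisson interval. Squares and diamonds are RNA-seq on exons in replicates 1 and 2. The open triangle is the limit that 0 footprints allow for Hmgn3. Among the 7 other members, footprint levels run from 136 in Hmgb3 to 1345 in Hmgb1.

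The counted length of the CDS has to stand beside these values, since it differed widely between members. In *Hmgb1*, *Hmgn1*, *Hmgn2* and *Hmga2* 100% of the annotated CDS was counted, in *Hmga1* 28.0%, in *Hmgb2* 16.8% and in *Hmgb3* 13.7%. Among 9448 passing genes with an annotation, 93.5% had at least 80% of the CDS counted and 1.31% had under 30%. Across passing genes, translational efficiency was lower the longer the counted CDS, with a median of 3.47 over 65 genes with at most 110 nt and 1.51 over 427 genes with 111 to 330 nt, and of -0.45 over 4389 genes with 1501 nt or more. More than 2-fold above the median of all genes lay 95.4% of genes with at most 110 nt, 70.3% of the 492 genes with at most 330 nt and 48.4% of the 1977 genes with at most 700 nt. With RNA-seq on the CDS these shares were 90.8%, 58.1% and 39.9%. The members are short, and the part of length in their position was not tested.

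**Figure D2:**
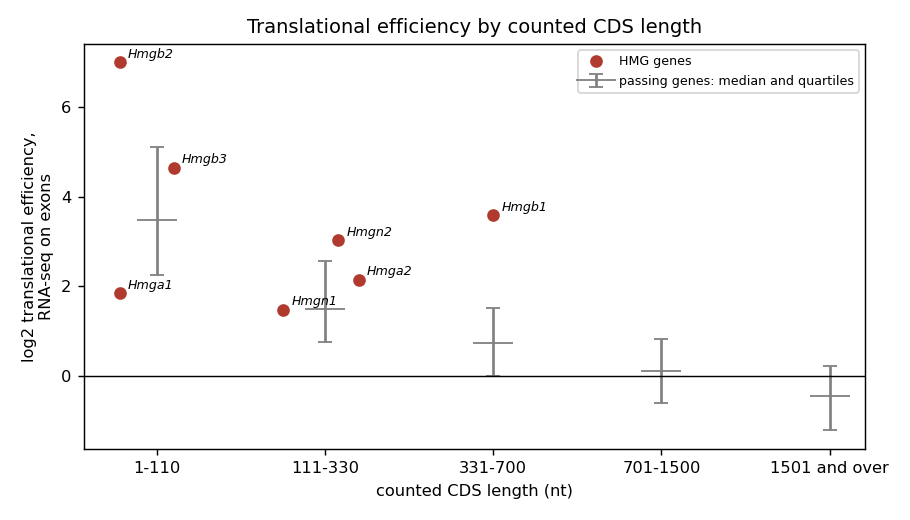
Log2 translational efficiency relative to the median gene, with RNA-seq on exons, by counted CDS length in nt. Grey bars are the median and quartiles of all passing genes in each length class and red points are HMG genes; Hmgb1, Hmgn2 and Hmgb2 lie above the upper quartile of their class, and Hmga1 below the lower one.

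Within the length classes, with RNA-seq on exons, the members spread out. *Hmgb1*, in the class of 331 to 700 nt, lay above the upper quartile of 1.51, and *Hmgb2*, in the shortest class, above its upper quartile of 5.11. *Hmgb3*, also in that class, lay between its median and upper quartile. *Hmgn2* was above the upper quartile of 2.56 for 111 to 330 nt. *Hmgn1* was close to the median of that class, and *Hmga2* lay between its median and upper quartile. *Hmga1* was below 2.25, the lower quartile of the shortest class. With RNA-seq on the CDS the median of the shortest class was 3.63. *Hmga1* (3.06) lay below it, *Hmgb2* (4.35) less than 2-fold above, and *Hmgb3* (5.56, on few RNA-seq counts) more than 2-fold above. The median of the 111 to 330 nt class was 1.08, and *Hmgn1* (3.16), *Hmgn2* (6.28) and *Hmga2* (2.59) were more than 2-fold above it. For 331 to 700 nt it was 0.58, and *Hmgb1* (3.05) was more than 2-fold above. Shares of genes this far above a class median were not counted.

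Copies in other genes were also common. Of the 30-base words in the CDS, 100% in *Hmgb3*, *Hmgn2* and *Hmga1*, 98.5% in *Hmgb1*, 95.8% in *Hmgb2*, 72.2% in *Hmgn1*, 49.8% in *Hmga2* and 1.12% in *Hmgn3* were in transcripts of at least 1 other gene. Over the 9448 passing genes with an annotation the median share was 0%, and 9.17% of them reached 50%. The words of *Hmgb1* were spread over 149 other genes, 146 of them annotated as pseudogenes, and those of *Hmgn2* over 28, of which 25 were pseudogenes. Among the 866 passing genes with at least 50% of shared words, 52.9% were more than 2-fold above the median with RNA-seq on exons and 53.8% with RNA-seq on the CDS. For the 6906 genes under 5% these shares were 16.4% and 13.6%. Reads of such genes can be split between copies in counting, so the levels of all members except *Hmgn3* are uncertain, and the part of the copies in the efficiencies was not tested.

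*Hmgb1*, the best known DNA-bending member and an alarmin when released from cells, lies on chr5:149046702-149184489 on the minus strand. It had 3080 footprints on 645 nt of CDS, a level of 1345 RPKM (exact Poisson 95% interval 1298 to 1394). Its RNA-seq level on exons was 91.6 RPKM in replicate 1 and 85.4 in replicate 2, from 2266 and 2762 counts. *Hmgb1* thus had the highest footprint level of the family at a middle mRNA level. Its log2 translational efficiency was 3.58 ± 0.06 (SD over the 2 RNA-seq replicates), with an exact binomial 95% interval of 3.52 to 3.65, or 12.0-fold above the median gene, at percentile 98.7. These intervals cover counting error only and not the spread between libraries. Reads copied from the same molecule by PCR, where counted again, would make them too narrow even for that. With RNA-seq on the CDS, at 160 and 155 RPKM, it was 3.05 ± 0.04. *Hmgb1* provided 53.8% of the footprints on member CDS, which together were 0.179% of all CDS footprints, and 56.1% and 52.9% of the member RNA-seq counts on CDS, which were 0.0273% and 0.0275% of all.

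*Hmgb2*, an HMG-box protein of proliferating cells, lies on chr8:57511907-57515999 on the plus strand. Only 106 nt of its 630 nt CDS were counted, with 252 footprints (669 RPKM, 590 to 758). RNA-seq on exons gave 4.55 and 3.75 RPKM in replicates 1 and 2, from 84.1 and 90.7 counts over 1725 nt. Its footprint level was as high as that of *Hmgn1* within counting error, while its RNA-seq level was among the lowest measured. The 1527 nt of 3′UTR held 6.21 and 4.67 of those RNA-seq counts, and the 92 nt of 5′UTR 36.7 and 45.5. The log2 translational efficiency of 6.99 ± 0.19 (interval 6.71 to 7.28) became 4.35 ± 0.30 (3.98 to 4.72) with RNA-seq on the counted CDS, a difference of -2.64. Its 3′UTR to CDS ratio of RNA-seq density, -6.58 and -6.96 on the log2 scale, stood at percentiles 1.32 and 1.17 of passing genes.

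*Hmgb3*, known from blood and other progenitor cells, lies on chrX:71555918-71560676 on the plus strand. Its 82 counted nt of a 600 nt CDS held 39.6 footprints (136 RPKM, 98.2 to 187). RNA-seq on exons gave 4.62 and 3.95 RPKM from 15.5 and 17.4 counts, so that *Hmgb3* and *Hmgb2* did not differ beyond the spread of the replicates. On the CDS only 2.41 and 3.25 RNA-seq counts were present, the first under the floor of 3 counts. Log2 translational efficiency was 4.65 ± 0.15 (3.96 to 5.37) with exons and 5.56 (4.24 to 7.02) with the CDS, where only the interval describes the precision. *Hmgb3* and *Hmgb2* failed a minimum of 100 counts in every library, and the filter taken on the deposited RPKM.

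*Hmgn1*, a nucleosome-binding protein, lies on chr16:96120618-96127729 on the minus strand and had the highest mean RNA-seq level of the family. RNA-seq on exons gave 212 and 186 RPKM (mean 199 ± 17.9 SD, n = 2), and 720 footprints on 288 nt of CDS gave 705 RPKM (654 to 758). Log2 translational efficiency was 1.48 ± 0.12 with exons, the lowest of the members that passed, and 3.16 ± 0.10 with the CDS. Between these bases lay a difference of 1.68, and most of the RNA-seq counts of *Hmgn1* were outside the CDS. On the 3′UTR lay 91.5% and 87.8% of its RNA-seq counts in replicates 1 and 2, and on the CDS 8.17% and 10.3%. Of its footprints, 70.2% were on the CDS and 25.1% on the 121 nt of 5′UTR. The 5′UTR counts in RNA-seq were 9.83 and 59.9, a gap between replicates wider than that of its exon counts, at 2719 and 3131.

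*Hmgn2*, its close relative, lies on chr4:133964738-133968650 on the minus strand. It had 285 footprints on 270 nt of CDS (298 RPKM, 264 to 334) and an RNA-seq level on exons of 31.5 and 26.2 RPKM. Of the 423 and 460 RNA-seq counts, 11.2 and 13.5 were on the CDS and 393 and 403 on the 802 nt of 3′UTR. The CDS of *Hmgn2* was thus nearly empty in RNA-seq, although the same positions held most of its footprints. The 182 nt of 5′UTR held 18.6 and 43.1 RNA-seq counts. Per nt this was also above the CDS, with log2 ratios of 1.30 and 2.25 at percentiles 99.5 and 99.9. Log2 translational efficiency was 3.03 ± 0.18 (2.83 to 3.22) with exons and 6.28 ± 0.10 (5.66 to 6.91) with the CDS. This was the largest difference between the bases among the members, at 3.25.

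*Hmgn3*, a relative studied mainly in brain and endocrine cells, lies on chr9:83109948-83146685 on the minus strand. It had 0 footprints in any region, which allows up to 3.11 RPKM on the 272 counted nt of its CDS at a floor of 3 counts. RNA-seq on exons gave 3 counts in replicate 1 and 1.28 in replicate 2, or 0.308 and 0.100 RPKM. *Hmgn3* was at or under the floor in every library, did not pass the filters, and is given no fold.

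*Hmga1*, an AT-hook protein of stem and tumor cells, lies on chr17:27556497-27563674 on the plus strand. Its row counted 90 nt of a 321 nt CDS, with 219 footprints (684 RPKM, 598 to 783). RNA-seq on exons gave 141 and 159 RPKM (mean 150 ± 12.9), from 1005 and 1483 counts. Log2 translational efficiency was 1.85 ± 0.14 (1.64 to 2.05) with exons and 3.06 ± 0.22 (2.76 to 3.35) with the CDS. The 98 counted nt of 3′UTR held 69.5% and 68.5% of the RNA-seq counts, and the 477 nt of 5′UTR 23.7% and 24.0%. Footprints had the opposite layout, with 63.3% on the CDS, 36.3% on the 5′UTR and 1.21 counts on the 3′UTR.

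*Hmga2*, the other AT-hook protein and the let-7 target, lies on chr10:120361275-120476469 on the minus strand. RNA-seq on exons gave 192 and 159 RPKM (mean 175 ± 23.4), from 8564 and 9269 counts over 4176 nt, the largest counts of the family. Its 324 nt of CDS held 1131 footprints (984 RPKM, 927 to 1043), lower only than *Hmgb1*. Log2 translational efficiency was 2.15 ± 0.18 (2.06 to 2.24) with exons and 2.59 ± 0.09 (2.48 to 2.71) with the CDS. The 2980 nt of 3′UTR, which contains the let-7 matches printed above, held 91.7% and 87.6% of the RNA-seq counts and 5.11% of the footprints. Per nt, RNA-seq density on the 3′UTR was 1.65 and 1.18 times that on the CDS.

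**Figure D3:**
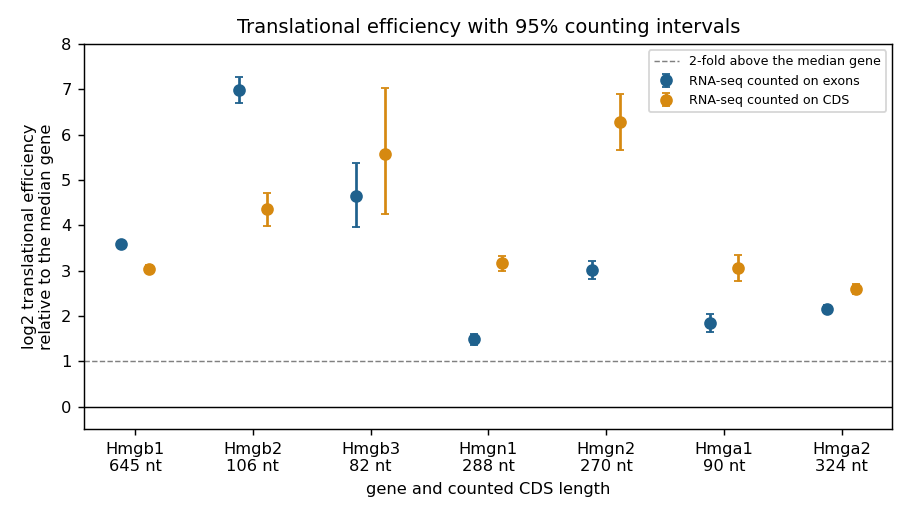
Log2 translational efficiency relative to the median gene for 7 HMG genes, with 95% exact binomial counting intervals and the counted CDS length under each name. Blue points use RNA-seq on exons and orange points RNA-seq on the CDS; all lie above the dashed line at 2-fold, and Hmgn2 rises from 3.03 to 6.28 while Hmgb2 goes from 6.99 to 4.35.

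In order of mean RNA-seq level on exons, *Hmgn1*, *Hmga2* and *Hmga1* came first, and neighbours among these 3 did not differ beyond the spread of the replicates. *Hmgb1* followed at 88.5 ± 4.38 RPKM, then *Hmgn2* at 28.8 ± 3.74, *Hmgb3* at 4.28 ± 0.469, *Hmgb2* at 4.15 ± 0.566 and *Hmgn3*. By footprint level the order was *Hmgb1*, *Hmga2*, *Hmgn1*, *Hmga1*, *Hmgb2*, *Hmgn2* and *Hmgb3*, and the intervals of *Hmgn1*, *Hmga1* and *Hmgb2* overlapped. The order of translational efficiency changed with the basis, with *Hmgb2* first on exons and *Hmgn2* first on the CDS. Without division by length, 4 of the 7 members lay more than 2-fold above, against 19.2% of all passing genes, and *Hmgn1* (0.44), *Hmga1* (-0.03) and *Hmga2* (-0.53) did not. Against passing genes with at most 700 nt of counted CDS, *Hmgn1* (0.54) and *Hmga1* (0.90) also fell short of 2-fold, and 7.07% of all passing genes lay more than 2-fold above that reference.

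Most counts of *Hmgn1*, *Hmgn2*, *Hmga1* and *Hmga2* in RNA-seq came from the 3′UTR, and most of their footprints from the CDS. Over all passing genes, 27.7% and 25.6% of RNA-seq counts and 1.81% of footprints lay on the 3′UTR. *Hmgn2* had 93.0% and 87.7% of its RNA-seq counts there. *Hmgb1* had 47.7% and 44.0%, and *Hmgb2* 7.38% and 5.16%. Per nt, the log2 ratio of RNA-seq density on the 3′UTR over the CDS was 3.56 (2.73 to 4.60) and 3.33 (2.59 to 4.31) in *Hmgn2*, 3.24 (2.88 to 3.62) and 3.06 (2.77 to 3.35) in *Hmga1*, and 2.03 (1.83 to 2.23) and 1.63 (1.46 to 1.80) in *Hmgn1*. The medians over passing genes were -0.64 in replicate 1 and -0.76 in replicate 2, and the 3 genes stood at percentiles 99.9, 99.9 and 99.5 in replicate 1. *Hmga2* stood at percentiles 96.7 and 93.3, and *Hmgb1*, at -1.26 and -1.44, at 30.6 and 29.3. In footprints the same ratio was -5.35 (-5.82 to -4.94) in *Hmgn1*, -6.66 (-7.95 to -5.73) in *Hmgn2*, -7.14 (-7.50 to -6.80) in *Hmga2* and -7.67 (-8.21 to -7.21) in *Hmgb1*, with a median of -5.93 over passing genes. *Hmga1* and *Hmgb2* had 1.21 and 1.10 footprints on the 3′UTR, under the floor of 3 counts, with intervals of -13.2 to -5.40 and -17.1 to -9.34.

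**Figure D4:**
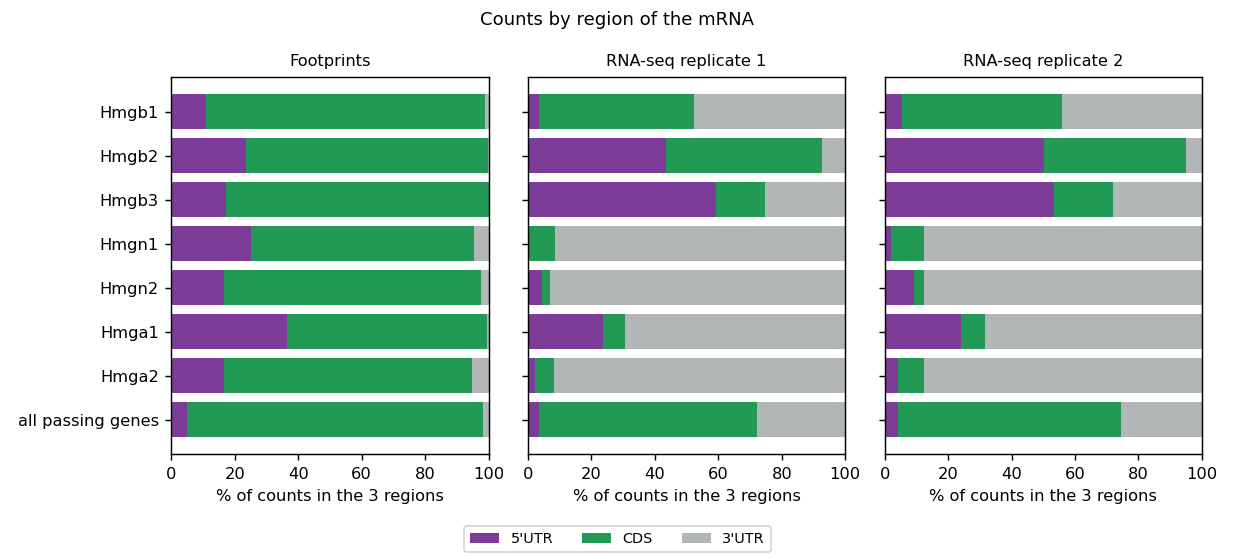
Percent of the counts of each gene on the 5′UTR, CDS and 3′UTR, for footprints and each RNA-seq replicate, with all passing genes in the last row. Footprints lie mainly on the CDS in every gene shown, while RNA-seq counts of Hmgn1, Hmgn2, Hmga1 and Hmga2 lie mainly on the 3′UTR, at 68.5% to 93.0% against 25.6% and 27.7% over all passing genes.

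Footprints on the 5′UTR were 4.95% of those in the 3 regions over all passing genes, and in the members from 11.0% in *Hmgb1* to 36.3% in *Hmga1*. These shares depend on how much of each region was counted, and in *Hmga1*, *Hmgb2* and *Hmgb3* little of the CDS was. Per nt, *Hmga2*, *Hmgb3* and *Hmga1* lay below the median gene and *Hmgn1* and *Hmgb1* above it, beyond their counting intervals. *Hmgn1* came nearest to its CDS, with a log2 ratio of -0.23 (-0.45 to -0.03) at percentile 78.7, then *Hmgb1* with -0.92 (-1.08 to -0.77) at percentile 62.5. *Hmga2*, whose counted 5′UTR of 872 nt is the longest of the family, had -3.66 (-3.86 to -3.45) at percentile 14.7. *Hmgb3*, with 8.15 footprints on the 5′UTR, had -3.55 (-4.89 to -2.47) at percentile 15.4, and *Hmga1* -3.21 (-3.54 to -2.89) at percentile 18.3. *Hmgn2* had -1.72 (-2.16 to -1.32) and *Hmgb2* -1.49 (-1.87 to -1.12), at percentiles 41.5 and 47.4, and both intervals include the median gene. The median over 7441 genes was -1.38. In RNA-seq the medians of this ratio were -2.02 in replicate 1 and -1.63 in replicate 2. *Hmgb1* (-1.72 and -1.16), *Hmgb2* (0.04 and 0.37), *Hmgn2* (1.30 and 2.25) and *Hmga1* (-0.60 and -0.73) lay above them, and *Hmga2* (-2.88 and -2.35) below. *Hmgn1* lay below in replicate 1 (-3.25) and above in replicate 2 (-1.18). *Hmgb3* had too few RNA-seq counts on the CDS. The annotated transcripts share a purine 3 nt before the start codon, a feature of 84.9% of genes, and none of the 8 opens with C and 4 pyrimidines, which 2.15% of genes do.

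With RNA-seq on exons, 4 genes with other HMG names had lower translational efficiencies than the 7 members. *Hmgn5*, an HMGN protein with a long acidic tail, had a log2 translational efficiency of 0.78, *Hmg20b* -0.96, *Hmgxb4* -0.24 and *Hmgxb3* -1.56, all with at least 97.7% of the CDS counted. Their counted CDS, from 951 nt in *Hmg20b* to 3858 nt in *Hmgxb3*, was longer than that of the members, at 82 to 645 nt. *Hmgb4*, a testis gene, had 0 counts in all libraries. *Hmgb1-rs17*, a pseudogene that shares 28.1% of the 30-base words of *Hmgb1*, had 109 footprints on its exons and 4.45 and 4.75 RNA-seq counts. *Hmga2-ps1* had the reverse, with 3.52 footprints and 601 and 746 RNA-seq counts on 1510 nt. Reads of these rows cannot be told apart from reads of the parent genes where the sequences are the same.

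By Euclidean distance over log2 RPKM in the 3 libraries, the passing genes nearest to *Hmgn1* were *Swi5* (0.12), *Atp5j* (0.16) and *Ly6c1* (0.18). Those nearest to *Hmga2* were *Ncl* (0.15), *Hspd1* (0.15) and *Rac1* (0.15). Their counted CDS ran from 267 nt in *Swi5* to 2121 nt in *Ncl*.

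Histone chaperones escort histones onto and off DNA. Of 20 genes, 20 passed, 13 lay more than 2-fold above the median with RNA-seq on exons and 13 with RNA-seq on the CDS, against 20.8% and 18.3% of all passing genes, and 0 below on either, against 21.1% and 19.5%, with medians of 1.59 and 1.30. With a minimum of 100 counts per library, 12 of 19 genes lay above and 2 below, against 18.8% and 15.7%. Against passing genes with at most 700 nt of counted CDS, 8 of these chaperones lay above and 3 below. Of the lists described next, the HMG-box factors (with *Capn15*) had 0 above and 8 below. The architectural proteins had 3 and 4, and the HMGB1 receptor genes 1 and 1. Of all passing genes, 7.07% lay above and 48.3% below that reference. *Set*, a histone H2A-H2B chaperone, had 3.99 with 29.1% of its CDS counted, and *Nap1l1* had 2.85 with 38.8%. *Npm1*, the nucleolar chaperone, had 2.05 with exons and 2.55 with the CDS, and its relative *Npm3* had 2.73 with the CDS, both fully counted. *Ssrp1*, the HMG-box subunit of FACT, had 0.27, *Anp32b* 0.58, *Hira* -0.82 and *Supt6* -0.86.

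Other HMG-box factors were spread around the median gene. The list held 24 genes, of which *Capn15*, a calpain, has no HMG box and is left out here. Of the other 23 genes, 17 passed, 2 lay more than 2-fold above and 5 below, against 20.8% and 21.1% of all passing genes, with a median of 0.11. With a minimum of 100 counts per library these numbers were 1 and 2 of 13 genes, against 18.8% and 15.7%. *Tfam*, which packs mitochondrial DNA with HMG boxes, had 1.67, though 0.68 with RNA-seq on the CDS. *Sox9* had 1.34 and *Sox2* 0.91, both transcription factors of skin progenitors and tumors, and *Smarce1*, of the BAF remodelling complex, had 0.84. Among genes with 100 counts or more in each library, the lowest were *Cic*, a repressor of Ras-Erk targets, with -2.54 and 63.8% of its CDS counted, *Kmt2c* with -1.35 and *Hbp1* with -0.54.

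Of 19 linker histones and architectural proteins, 18 passed, with 7 more than 2-fold above and 1 below, against 20.8% and 21.1% of all passing genes, and a median of 0.84. With a minimum of 100 counts per library the number above was 3 of 16 genes, against 18.8%. *Nucks1*, an abundant chromatin protein, had 3.42, *Cbx5*, a heterochromatin protein, 3.21, and *Banf1*, which bridges DNA at the nuclear lamina, 1.88. *Ybx1* had 1.16 and *Ybx3* 0.12, both cold-shock proteins. *Ctcf*, the loop anchor, had -0.10, *Smc1a* of cohesin -0.49 and *Top2b* -1.11.

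Of 10 genes for HMGB1 receptors and release, 5 passed and 3 lay more than 2-fold above, against 20.8% of all passing genes, with a median of 1.03. *Sdc1* and *Cd24a* lay close to that cut, and *Havcr2*, a receptor of immune cells named after its value was seen, had 2.61 from 95.8 footprints on the CDS. With RNA-seq on the CDS the number above was 2, against 18.3%, and with a minimum of 100 counts per library it was 0 of 3 genes, against 18.8%. *Sdc1*, a heparan sulfate proteoglycan, had 384 and 446 RPKM in RNA-seq and was the most abundant, and *Cd24a*, with a log2 translational efficiency of 1.05 on 110 counted nt, had 264 and 255. *Xpo1*, the nuclear export receptor, had 0.87. *Ager*, *Tlr2* and *Tlr4*, receptors of extracellular HMGB1 named here after their values were seen, had low RNA-seq levels. *Ager* had 1.17 and 1.12 RPKM, *Tlr2* 0.164 and 0.225, and *Tlr4* 2.49 and 1.85.

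Of 13 names in the let-7 pathway, 11 had rows and 8 passed, with 1 more than 2-fold above and 2 below, against 20.8% and 21.1% of all passing genes, and a median of -0.62. The 2 below, named after their values were seen, were *Zcchc11* (-1.57) and *Zcchc6* (-1.56), which add uridines to let-7 precursors. The names without rows, *Tut4* and *Tut7*, are other symbols of these same genes. With a minimum of 100 counts per library, 1 of 5 genes lay above and 1 below, against 18.8% and 15.7%. Against passing genes with at most 700 nt of counted CDS, 1 of 8 lay above and 5 below, against 7.07% and 48.3%. Like *Hmga2*, the list genes *Igf2bp1*, *Lin28b* and *Trim71* hold at least 4 let-7 seed matches in their annotated 3′UTR. *Lin28b* and *Trim71* did not pass, and a link between matches and efficiency was not tested. *Igf2bp1* had the highest value at 2.67, with 2.45 and 2.51 RPKM in RNA-seq. Its relatives *Igf2bp3* and *Igf2bp2* had 0.74 and -0.60, at 20.8 and 18.5 RPKM and 84.0 and 79.0 RPKM. *Dicer1*, which cuts microRNA precursors, had -0.63 and *Ago2*, which binds mature microRNAs, 0.33. The let-7 repressors were scarce, and they are named after their values were seen. *Lin28a* had 0 counts in every library, and *Lin28b* had 1 and 2 RNA-seq counts and 12 footprints on exons, 0 of them on the CDS.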

How the data were processed

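Libraries of SCCc were used, 1 of ribosome profiling and 2 of RNA-seq, and the long-read libraries were not analysed here. The authors trimmed reads with Trim Galore, aligned them to GRCm38 with STAR 2.6.1, removed ribosomal, mitochondrial and tRNA reads from ribosome profiling with Bowtie2 2.4.1, and counted genes with Plastid. The deposited estimated counts need not be whole and are not normalized. The deposited RPKM values use library totals of 202893242, 50733402 and 65593171, larger than the summed exon counts, so RPKM was computed again from those sums. The counting annotation is not given in the sources used here. Size factors came from DESeq2 1.42.0 and, as an alternative, edgeR 4.0.16 on rounded counts, with Python 3.11.15, numpy 2.4.6, pandas 2.3.3 and scipy 1.17.1 for the rest. The difference between RNA-seq replicates exceeded sampling noise (chi-square statistic per degree of freedom 7.52 over 9863 genes), so they do not look like repeated deposits of 1 library, but this does not tell technical from biological replicates. They are labelled as replicates 1 and 2, and their mean entered translational efficiency. With 1 ribosome profiling library in a single condition, no test was run and no p-value is given. "More than 2-fold" means past 1 or -1 on the log2 scale. Region ratios used genes with at least 60 nt in both regions and 10 counts on the CDS. Annotated lengths, coordinates and shared 30-base words came from GENCODE M21 principal transcripts, compared with transcripts only and not with the genome. The calculation was tested on simulated counts. Named genes were the members, other HMG-named rows (not all are reported here), markers, the 3 nearest genes of the 2 members with the highest RNA-seq level, and, of each list, the 3 with the highest and the 3 with the lowest translational efficiency (of those reaching 100 counts in each library) and the 3 with the highest RNA-seq level. The members and lists were chosen with earlier results of these data known. Alternatives covered the region, replicates, pseudocount, length, filters, normalization and reference genes.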

Additional observations from a re-analysis of the deposited data

How the results depend on the processing

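Log2 translational efficiency of the 7 members stayed above the median gene under every setting tried except the count ratio without division by length, which gave 2.76 for *Hmgb1*, 3.98 for *Hmgb2*, 3.72 for *Hmgb3*, 0.44 for *Hmgn1*, 1.82 for *Hmgn2*, -0.027 for *Hmga1* and -0.53 for *Hmga2*, with 4 members more than 2-fold above, against 19.2% of all genes, and a member median of 1.82. The cause was not tested. With RNA-seq over the CDS the values were 3.05, 4.35, 5.56, 3.16, 6.28, 3.06 and 2.59 in the same order. A pseudocount of 1 RPKM gave 6.71 for *Hmgb2* and 4.39 for *Hmgb3*. A minimum of 100 counts in every library left 5 members (*Hmgb1* 3.19, *Hmgn1* 1.09, *Hmgn2* 2.63, *Hmga1* 1.45, *Hmga2* 1.76, median 1.76) and 908 genes above and 757 below among 4829. Filtering on deposited RPKM left 5 members with a median of 2.14.

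Against passing genes with at most 700 nt of CDS the values were 2.64, 6.05, 3.70, 0.54, 2.08, 0.90 and 1.20 in the order above (median 2.08), with 697 genes above and 4762 below. The next 2 settings were chosen after seeing the data. RNA-seq over the CDS with that reference gave 2.34, 3.64, 4.86, 2.46, 5.57, 2.35 and 1.89 (median 2.46), with 777 and 3842 genes. Against genes with at least 50% shared 30-base words the values were 2.46, 5.86, 3.52, 0.35, 1.90, 0.72 and 1.02 (median 1.90), with 567 and 5380 genes.

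Leaving out either RNA-seq replicate gave 3.54 to 3.62 for *Hmgb1*, 6.86 to 7.13 for *Hmgb2*, 4.54 to 4.75 for *Hmgb3*, 1.40 to 1.57 for *Hmgn1*, 2.90 to 3.15 for *Hmgn2*, 1.75 to 1.94 for *Hmga1* and 2.02 to 2.28 for *Hmga2*. Over all settings the number more than 2-fold above ran from 6 to 15 for histone chaperones, 0 to 4 for HMG-box factors (with *Capn15*), 3 to 9 for architectural proteins, 0 to 3 for HMGB1 receptors and 0 to 1 for the let-7 pathway, and the number below from 0 to 3, 2 to 10, 0 to 5, 0 to 1 and 0 to 5. Over all genes of each setting, the share above ran from 5.75% to 22.2% and the share below from 15.7% to 54.55%. The reference of at most 700 nt left 8 chaperones above. Leaving *Capn15*, which has no HMG box, out of the HMG-box list was chosen after seeing the data and gave 2 above and 5 below, where the full list had 2 and 6. Adding 1 count to each region moved no footprint ratio outside its interval. No paired analysis was possible because files of a single condition were used and ribosome profiling had 1 library. At this depth *Hmgb3*, with 39.6 footprints, and *Hmgn3*, with 0, cannot be placed closely.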
